A study of Mus musculus with 12 samples.

Results

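The genes described here are known targets and regulators of the tumour suppressor p53 together with the Gadd45 family, measured in mouse NIH3T3 cells, an established fibroblast line. They were chosen by name as all probe sets whose only annotated symbol was Trp53, Mdm2, Trp53inp1, Ccng1, Phlda3, Zmat3, Plk2, Gadd45a, Gadd45b or Gadd45g. That rule found 17 probe sets for 9 of the 10 genes, out of 34945 probe sets and 18193 genes with 1 symbol on the array. Trp53 itself was not analysed here.

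There were 12 Affymetrix arrays in 6 groups of 2, and every culture had been infected with a virus. Tead2-VP16 cells carried the DNA-binding factor Tead2 joined to a viral activation domain and were harvested at complete confluency (also called over confluent in the labels) and while still proliferating a little above the density at which normal cells are confluent, which is called high density below. Yap cells expressed Yap, a coactivator that binds Tead factors, and were harvested at high density. Control cells carried the control vector and were harvested at complete confluency and at low density, which the labels give as 30% confluency. Tead2-EnR cells carried Tead2 joined to the repression domain of Engrailed and were harvested at 30% of their own confluency. Confluency is thus relative, and groups of the same stated confluency may differ in cells per area. No control cells were harvested at high density, so vector and density cannot be told apart where the high-density groups are set against control. Whether arrays with 1 label stem from separate cultures, and whether infected cells were clones, is not given in the labels, so the p-values cover the spread between these arrays, which may be technical.

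p53 is a transcription factor that is stabilised by DNA damage and other stress and that halts the cell cycle or starts cell death through its target genes. Mdm2, an E3 ubiquitin ligase, is induced by p53 and in turn marks p53 for degradation, which closes a feedback loop. Gadd45 proteins are small acidic stress proteins that bind Pcna, Cdk1 and the kinase Map3k4, upstream of the p38 and Jnk kinases. NIH3T3 cells are known to have lost the Cdkn2a locus, whose product Arf restrains Mdm2.

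Values are log2 of the deposited probe set intensities, and a difference is on the same scale. A gene with several probe sets was represented by the brightest of them on average. Levels of different genes are not compared, because probe sets differ in brightness. Median intensity lay between 51.9 and 53.7 on the 12 arrays, and the arrays of a group correlated with r of 0.9970 to 0.9982 over all probe sets. The bacterial spike-in probe sets differed between groups in mean log2 level. They were at 8.30 ± 0.08 in low-density control, 8.43 ± 0.07 in high-density Tead2-VP16 cells and 8.59 ± 0.09 in Yap cells (SD, n = 2 each). Tead2-EnR cells had 8.67 ± 0.05, confluent control 8.71 ± 0.14 and confluent Tead2-VP16 cells 8.80 ± 0.21. The means thus rose from group to group in the order in which the samples are listed. The part of this difference in the results was not tested. All 8 fibroblast markers were among the brightest probe sets (percentiles 92.7 to 100 of mean level), whereas of 20 markers of macrophages, epithelial, endothelial, muscle and fat cells, 6 were above the median probe set and the highest, Epcam, was at percentile 72.7. Cdkn2a, named outside the naming rule, was at percentile 25.4 with a log2 level of 4.18. In bulk RNA, fewer expressing cells and less RNA per cell cannot be told apart.

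Promoter windows from RefSeq (build GRCm38.p6), from 250 bases before to 50 bases after the start of a gene, were found for 7 of the 9 genes. The first pair below are the upstream parts for Mdm2 and Ccng1, which were high together in low-density cells, and the other 3 are those of the Gadd45 genes, a family whose 3 members had different orders across the groups. Capitals mark matches to the p53 half-site, the consensus decamer that p53 binds in tandem and that reads alike on both strands.
Mdm2, chr10:117710759-117711008, minus strand: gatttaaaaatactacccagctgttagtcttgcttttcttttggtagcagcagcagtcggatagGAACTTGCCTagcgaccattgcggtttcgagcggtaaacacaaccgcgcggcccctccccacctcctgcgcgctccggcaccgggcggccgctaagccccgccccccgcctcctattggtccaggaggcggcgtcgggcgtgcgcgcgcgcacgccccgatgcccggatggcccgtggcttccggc
Ccng1, chr11:40755287-40755536, minus strand: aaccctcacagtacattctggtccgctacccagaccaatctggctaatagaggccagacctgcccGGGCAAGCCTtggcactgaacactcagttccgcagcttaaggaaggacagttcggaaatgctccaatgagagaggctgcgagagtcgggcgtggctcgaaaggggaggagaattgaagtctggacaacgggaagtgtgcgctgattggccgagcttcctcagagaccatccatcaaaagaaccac
Gadd45a, chr6:67037408-67037657, minus strand: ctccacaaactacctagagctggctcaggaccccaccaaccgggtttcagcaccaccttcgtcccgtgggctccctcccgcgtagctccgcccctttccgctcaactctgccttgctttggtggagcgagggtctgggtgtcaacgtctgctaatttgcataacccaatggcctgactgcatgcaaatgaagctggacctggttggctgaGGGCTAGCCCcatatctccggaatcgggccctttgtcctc
Gadd45b, chr10:80929841-80930090, plus strand: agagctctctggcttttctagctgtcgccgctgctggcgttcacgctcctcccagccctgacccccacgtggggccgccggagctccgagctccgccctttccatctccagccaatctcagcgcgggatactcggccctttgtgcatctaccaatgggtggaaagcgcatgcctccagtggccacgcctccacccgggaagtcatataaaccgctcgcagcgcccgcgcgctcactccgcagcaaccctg
Gadd45g, chr13:51846425-51846674, plus strand: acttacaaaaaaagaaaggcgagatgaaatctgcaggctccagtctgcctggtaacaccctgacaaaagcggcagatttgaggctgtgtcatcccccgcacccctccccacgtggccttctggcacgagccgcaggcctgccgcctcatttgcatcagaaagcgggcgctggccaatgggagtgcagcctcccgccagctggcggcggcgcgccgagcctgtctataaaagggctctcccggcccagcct

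Half-sites were found in the windows of 3 of the 7 genes, Mdm2, Ccng1 and Gadd45a, and in 8.36% of 32851 promoter windows of the genome. The full p53 response element (2 half-sites with at most 13 bases between them) was in none of the 7 windows and in 0.0731% of all windows; the best known p53 sites of Mdm2 and Gadd45a lie in introns, outside these windows. GGAATG, the core of the Tead site, searched on both strands, was in the window of Phlda3 alone among the 7 and in 14.7% of all windows. It lies just after the start of the gene, at position 7, and is shown in capitals with its surroundings.
Phlda3, chr1:135766079-135766108, plus strand: gccagcggggcaGGAATGcgcggcgggcgg

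**Figure D1:**
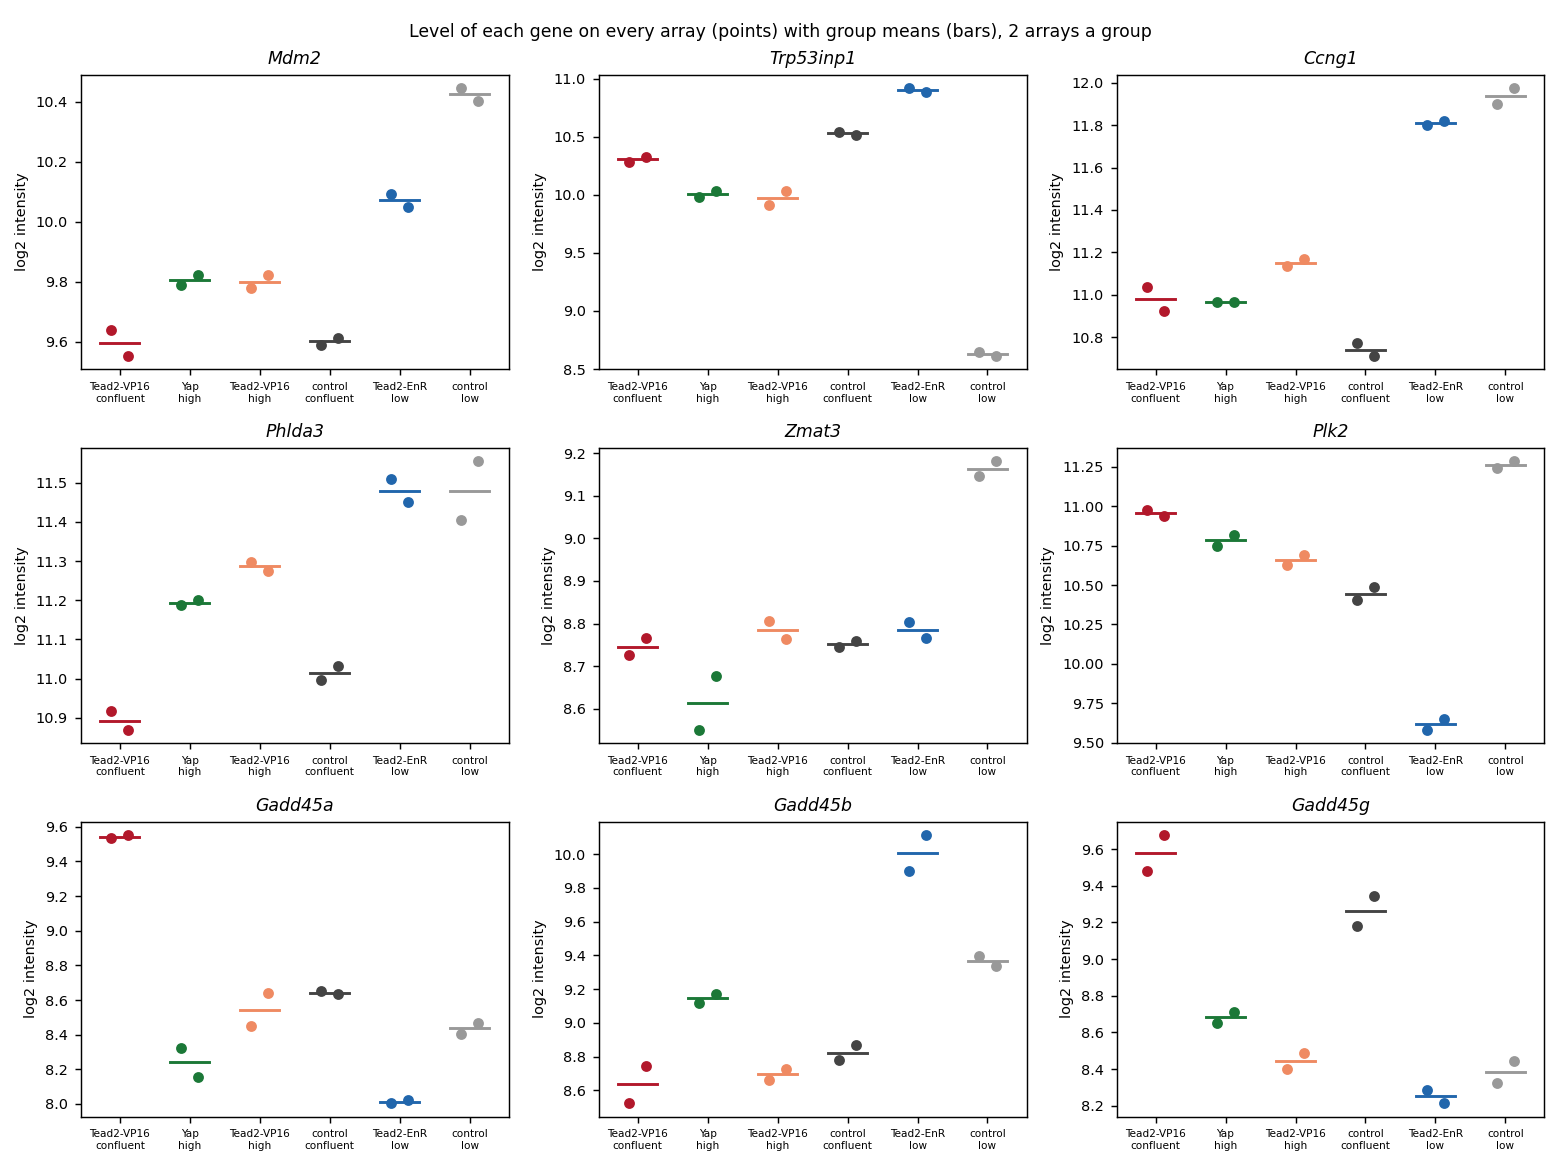
Level of each gene (log2 intensity, a separate axis range for each panel) on the 2 arrays of every group, with the group mean as a bar. Mdm2, Ccng1, Zmat3 and Plk2 are highest in low-density control cells, Trp53inp1 is lowest there at 8.63, and Gadd45a and Gadd45g are highest in confluent Tead2-VP16 cells at 9.54 and 9.58.

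Mdm2 was highest in low-density control cells in all arrays. It measured 9.64 and 9.55 in confluent Tead2-VP16 cells, 9.79 and 9.82 in Yap cells, 9.78 and 9.82 in high-density Tead2-VP16 cells, 9.59 and 9.61 in confluent control, 10.09 and 10.05 in Tead2-EnR cells and 10.45 and 10.40 in low-density control. Yap and high-density Tead2-VP16 cells overlapped, as did both confluent groups, and the arrays of the other neighbours did not. With 2 arrays a group, lack of overlap is easily met. Here and below it describes the arrays and is no test of a difference. Ccng1, cyclin G1, an unusual cyclin that binds protein phosphatase 2A and Mdm2, had a like order. Its levels were 11.04 and 10.92 in confluent Tead2-VP16 cells, 10.97 on both arrays of Yap cells, 11.13 and 11.17 in high-density Tead2-VP16 cells, 10.77 and 10.71 in confluent control, 11.80 and 11.82 in Tead2-EnR cells and 11.90 and 11.98 in low-density control. Both low-density groups were above the other 4, and only Yap and confluent Tead2-VP16 cells overlapped among neighbours. Over the 12 arrays Mdm2 and Ccng1 had the highest correlation of any pair of these genes (r = 0.93), as a description of arrays that fall into 6 groups.

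Phlda3, a small protein that keeps the kinase Akt from the membrane, spanned the second smallest range of the genes. It measured 10.92 and 10.87 in confluent Tead2-VP16 cells, 11.19 and 11.20 in Yap cells, 11.30 and 11.27 in high-density Tead2-VP16 cells, 10.997 and 11.03 in confluent control, 11.51 and 11.45 in Tead2-EnR cells and 11.41 and 11.55 in low-density control. The low-density groups overlapped and lay above all others, and both confluent groups were lowest. Zmat3, a zinc finger protein that binds RNA, had the smallest range, 1.46-fold between the highest and the lowest group mean. Its levels were 8.73 and 8.77 in confluent Tead2-VP16 cells, 8.55 and 8.68 in Yap cells, 8.81 and 8.76 in high-density Tead2-VP16 cells, 8.74 and 8.76 in confluent control, 8.80 and 8.77 in Tead2-EnR cells and 9.15 and 9.18 in low-density control. Low-density control stood above all other arrays, and Tead2-EnR overlapped with high-density Tead2-VP16 cells.

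Trp53inp1, a p53-induced nuclear protein that promotes cell death and autophagy, was lowest in low-density control and highest in Tead2-EnR cells. It measured 10.29 and 10.33 in confluent Tead2-VP16 cells, 9.98 and 10.03 in Yap cells, 9.92 and 10.03 in high-density Tead2-VP16 cells, 10.55 and 10.52 in confluent control, 10.92 and 10.89 in Tead2-EnR cells and 8.65 and 8.61 in low-density control. It had the widest range of the genes, 4.84-fold, and only Yap and high-density Tead2-VP16 cells overlapped. Plk2, a polo-like kinase induced by serum and by p53, was lowest in Tead2-EnR cells. Its levels were 10.97 and 10.94 in confluent Tead2-VP16 cells, 10.75 and 10.82 in Yap cells, 10.63 and 10.69 in high-density Tead2-VP16 cells, 10.41 and 10.49 in confluent control, 9.58 and 9.65 in Tead2-EnR cells and 11.24 and 11.28 in low-density control. No neighbouring groups overlapped, and the low-density groups were the highest and the lowest of the 6. Of these neighbours, Yap and high-density Tead2-VP16 cells differed by 0.13, which did not pass the limma test (adjusted p = 0.452).

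The 3 Gadd45 genes each had an order of their own. Gadd45a, the family member best known as a p53 target, measured 9.53 and 9.55 in confluent Tead2-VP16 cells, 8.33 and 8.16 in Yap cells, 8.45 and 8.64 in high-density Tead2-VP16 cells, 8.65 and 8.63 in confluent control, 8.004 and 8.02 in Tead2-EnR cells and 8.41 and 8.47 in low-density control. Confluent Tead2-VP16 cells stood 0.90 above the next group. High-density Tead2-VP16 cells overlapped with confluent control and with low-density control, whereas both arrays of confluent control lay above those of low-density control. Gadd45b, which is induced by transforming growth factor beta and NF-kB, was highest in Tead2-EnR cells. It measured 8.52 and 8.75 in confluent Tead2-VP16 cells, 9.12 and 9.17 in Yap cells, 8.66 and 8.73 in high-density Tead2-VP16 cells, 8.78 and 8.87 in confluent control, 9.90 and 10.11 in Tead2-EnR cells and 9.40 and 9.34 in low-density control. The Tead2-VP16 groups overlapped at the low end. Gadd45g, known as a cytokine-induced member, measured 9.48 and 9.68 in confluent Tead2-VP16 cells, 8.65 and 8.71 in Yap cells, 8.40 and 8.49 in high-density Tead2-VP16 cells, 9.18 and 9.34 in confluent control, 8.29 and 8.21 in Tead2-EnR cells and 8.33 and 8.44 in low-density control. Both confluent groups were above the other 4, and high-density Tead2-VP16 cells overlapped with low-density control.

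Control cells were harvested at 2 densities, and the genes that differed between them are described first. Of the 9 genes, 6 were lower in confluent control cells than in low-density control cells, namely Mdm2, Ccng1, Phlda3, Zmat3, Plk2 and Gadd45b, and 2 were higher, Trp53inp1 and Gadd45g. Among all genes, 46.3% passed the same test (limma over all 45037 probe sets, Benjamini-Hochberg adjusted p below 0.05), 24.9% higher and 21.4% lower, so a call in this step was common. The 9 genes are bright, at percentiles 80.3 to 97.2 of mean level, and bright probe sets were called more often. When only probe sets above the median level were tested, 15495 of 22518 were called. In the other comparisons too, the share over all genes is below that over bright probe sets. Trp53inp1 rose 3.73-fold, with 10.53 ± 0.02 in confluent and 8.63 ± 0.03 in low-density cells (SD, n = 2 each; adjusted p = 9.3e-09). Ccng1 fell 2.29-fold, with 10.74 ± 0.04 in confluent and 11.94 ± 0.05 in low-density cells (adjusted p = 2.1e-07). The negative regulator Mdm2 fell 1.77-fold (difference -0.82, SE 0.06) and the kinase Plk2 fell 1.76-fold (-0.82, SE 0.06). Smaller falls were those of Gadd45b (-0.54, SE 0.09), Phlda3 (-0.47, SE 0.07) and Zmat3 (-0.41, SE 0.06). Gadd45g rose by 0.88 (SE 0.09), while Gadd45a was at 0.20 (SE 0.08, adjusted p = 0.0746); it passed the test when only genes, rather than all probe sets, were tested. The median difference of the 9 genes was -0.47, beside -0.01 over all genes. Proliferation genes moved in the same step: all 7 measured were lower at confluency, with a median of -2.41, among them Ccna2 (-3.21), Aurka (-3.20) and Mcm3 (-3.14). Of the 8 fibroblast markers 6 were higher at confluency, with a median of 1.04 and Col3a1, a fibrillar collagen, at 2.28, and of the 20 markers of other cell types Epcam was called higher (1.25) and 3 were called lower. The log2 difference between 3′ and 5′ control probe sets, a sign of RNA quality, was also higher at confluency for actin and Tfrc, the transferrin receptor. It was 0.23 ± 0.02 in confluent and 0.08 ± 0.01 in low-density cells for actin and 1.30 ± 0.19 and 0.98 ± 0.05 for Tfrc (SD, n = 2 each). For Gapdh it went the other way, at -0.28 ± 0.03 and -0.23 ± 0.01. The part of these shifts in the results for the p53 targets was not tested.

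**Figure D2:**
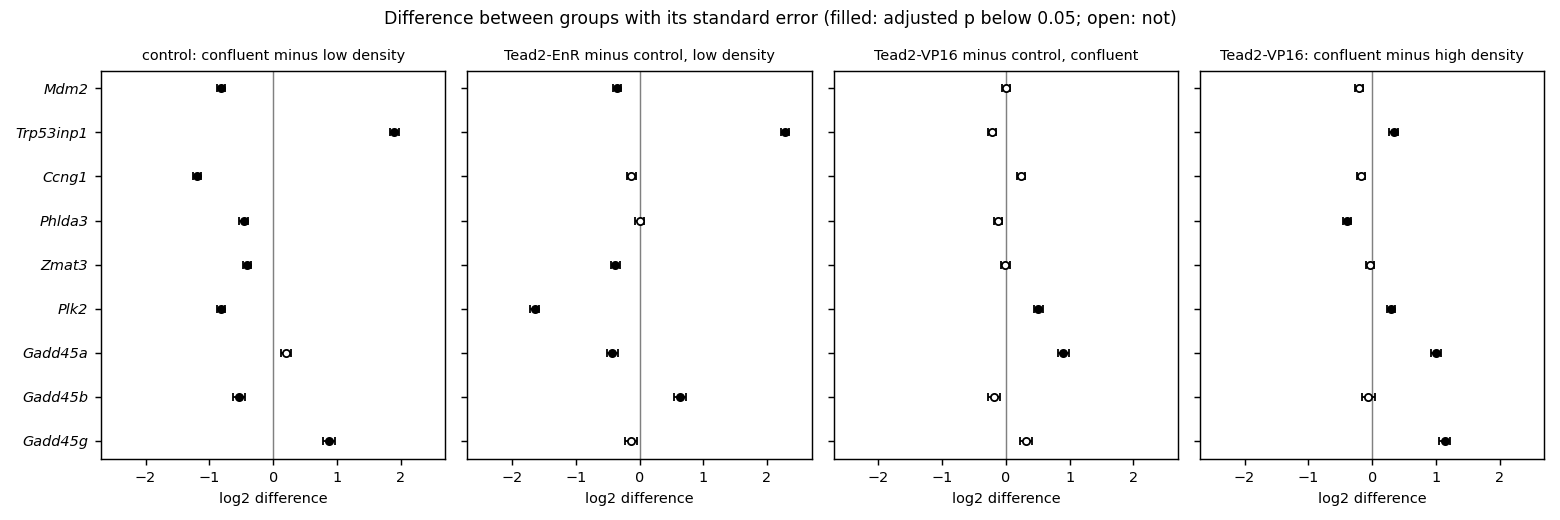
Differences (log2) of the 9 genes in 4 comparisons with the standard error of the limma fit as bars; filled points passed the test. Trp53inp1 is at 1.90 with density in control cells and at 2.27 with Tead2-EnR, and Plk2 is at -1.65 with Tead2-EnR and at 0.51 with Tead2-VP16.

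The effect of the repressor fusion was read at low density, where Tead2-EnR cells have a control. Trp53inp1 and Gadd45b were higher, and Plk2, Gadd45a, Zmat3 and Mdm2 were lower, where 34.4% of all genes were called, 18.4% higher and 16.0% lower. When only probe sets above the median level were tested, 12404 of 22518 were called. Trp53inp1 rose 4.84-fold, with 10.91 ± 0.02 in Tead2-EnR cells and 8.63 ± 0.03 in control (SD, n = 2 each; adjusted p = 1.78e-08). Plk2 fell 3.13-fold, with 9.62 ± 0.05 in Tead2-EnR cells and 11.26 ± 0.03 in control (adjusted p = 1.32e-07). These were the widest differences of either gene in any of the 9 comparisons between groups. Gadd45b rose 1.56-fold, with 10.01 ± 0.15 in Tead2-EnR cells and 9.37 ± 0.04 in control (adjusted p = 6.0e-04), and Gadd45a fell 1.34-fold, with 8.01 ± 0.01 and 8.44 ± 0.04 (adjusted p = 0.00285). The falls of Zmat3 (-0.38, SE 0.06) and Mdm2 (-0.35, SE 0.06) were smaller. Phlda3 was at 0.00 (SE 0.07), Ccng1 at -0.13 (SE 0.07) and Gadd45g at -0.13 (SE 0.09), and none of these passed the test. The 7 proliferation genes were lower here too, with a median of -0.68, and 6 of the 8 fibroblast markers were higher, with a median of 0.33, while of the 20 markers of other cell types 2 were called higher and 1 lower. The 3′ minus 5′ values were 0.15 ± 0.02 in Tead2-EnR cells and 0.08 ± 0.01 in control for actin, 1.12 ± 0.02 and 0.98 ± 0.05 for Tfrc, and -0.26 ± 0.02 and -0.23 ± 0.01 for Gapdh (SD, n = 2 each). Their part in these results was not tested. This comparison and the density step share the low-density control arrays.

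The activator fusion has a control of the same stated confluency at complete confluency, and fewer of the genes passed the test there. Gadd45a rose 1.87-fold, with 9.54 ± 0.01 in Tead2-VP16 cells and 8.64 ± 0.01 in control (SD, n = 2 each; adjusted p = 2.67e-04). Plk2 rose 1.42-fold, with 10.96 ± 0.03 and 10.45 ± 0.06 (adjusted p = 0.00188), a call of its bright probe set that was lost at 0.11 (adjusted p = 0.504) when its 2 probe sets were averaged. The other 7 genes were not called: 2 rises and 0 falls passed the limma test, against 4 higher and 1 lower at an unadjusted p below 0.05, and 6.49% of all genes were called, 3.35% higher and 3.14% lower. Tests of only probe sets above the median level called 4231 of 22518, and 5 of the 9 genes. Gadd45g was at 0.32 (SE 0.09, adjusted p = 0.0757), Ccng1 at 0.24 (SE 0.07, adjusted p = 0.0702) and Trp53inp1 at -0.22 (SE 0.06, adjusted p = 0.0829). These 3 passed when only genes were tested, which gave 5 calls in place of 2. Mdm2 and Zmat3 differed by -0.005 and -0.007, both with an SE of 0.06. The confluent control arrays are those of the density step. Over all probe sets called in this comparison, 52.6% were higher, or 68.5% with arrays centred on their medians. The 3′ minus 5′ value of Tfrc was 1.50 ± 0.06 in confluent Tead2-VP16 cells and 1.30 ± 0.19 in confluent control (log2, SD, n = 2 each), and 4 of the 7 proliferation genes fell, with a median of -0.31; the part of either in these results was not tested.

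The changes made by each fusion against control of its own stated confluency share no array, and the difference between them was tested in the same fit. It was called for 8 of the 9 genes, 6 of them positive and 2 negative, and for 28.2% of all genes, 12.8% positive and 15.5% negative. The 9 genes are bright, and when only probe sets above the median level were tested, 10964 of 22518 were called. The activator's change minus the repressor's was 2.16 (SE 0.09, adjusted p = 3.44e-07) for Plk2, 1.33 (SE 0.11, adjusted p = 2.89e-05) for Gadd45a, -2.50 (SE 0.09, adjusted p = 1.51e-07) for Trp53inp1 and -0.83 (SE 0.13, adjusted p = 0.00147) for Gadd45b. Plk2 and Gadd45a were therefore called in opposite directions with the fusions, lower with the repressor and higher with the activator, though Plk2 was called higher only by its bright probe set and not with its probe sets averaged. For Trp53inp1 and Gadd45b the repressor's change passed the test and the activator's did not. With the probe sets of a gene averaged, the activator's falls also passed the limma test. They were -0.25 (adjusted p = 0.0171) for Trp53inp1 and -0.20 (adjusted p = 0.0426) for Gadd45b. Gadd45g (0.45), Zmat3 (0.37), Ccng1 (0.37) and Mdm2 (0.35) differed by less, and Phlda3 (-0.12, SE 0.10) was not called. Without the second Tead2-EnR array, 5 genes were called, with Mdm2, Zmat3 and Gadd45g lost. Mdm2 was also lost without the first confluent control array or the first confluent Tead2-VP16 array, and Ccng1 without the second low-density control, the first Tead2-EnR, the second confluent control or the first confluent Tead2-VP16 array. Gadd45g was lost without the second low-density control, the first confluent control or the second confluent Tead2-VP16 array. Fusion and density differ together here and cannot be told apart.

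**Figure D3:**
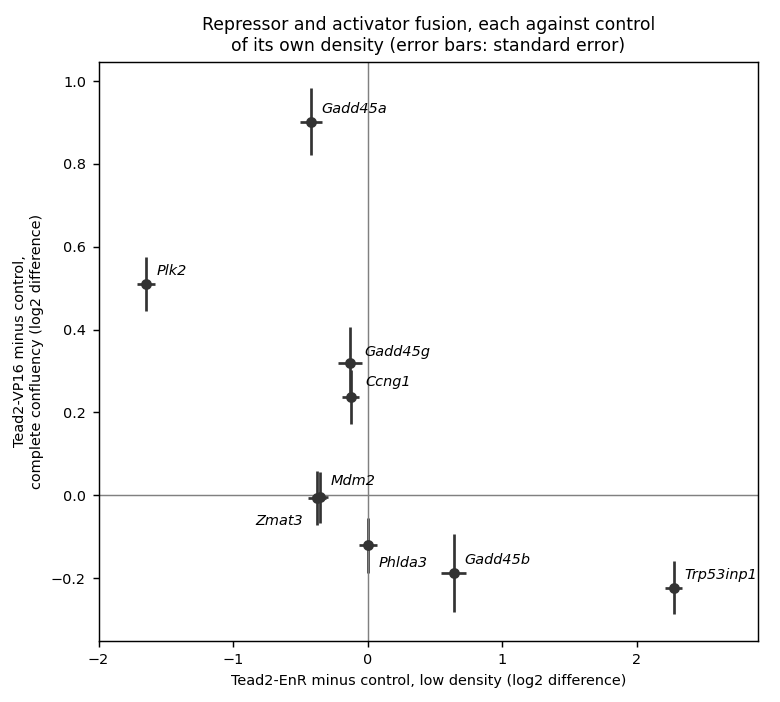
Change with Tead2-VP16 at complete confluency (vertical axis, log2) against change with Tead2-EnR at low density (horizontal axis, log2, on a wider scale). Each is against control of the same stated confluency, with standard errors as bars. Plk2 (-1.65, 0.51) and Gadd45a (-0.42, 0.90) lie in the upper left, and Trp53inp1 (2.27, -0.22) lies at the lower right.

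For high-density Yap cells, confluent control cells were one of the available controls. Of the 7 proliferation genes 4 were higher and 2 lower with Yap (median 0.33), and 4 of the 8 fibroblast markers were lower (median -0.25). The part of these shifts in the results below was not tested. Mdm2 (0.20), Ccng1 (0.23), Plk2 (0.34) and Gadd45b (0.32) were higher with Yap, and Trp53inp1 (-0.52), Gadd45g (-0.58) and Gadd45a (-0.40) were lower, while 22.0% of all genes were called, 9.61% higher and 12.4% lower. Gadd45g measured 8.68 ± 0.04 in Yap cells and 9.26 ± 0.12 in control (SD, n = 2 each; adjusted p = 0.00161), and Trp53inp1 measured 10.01 ± 0.04 and 10.53 ± 0.02 (adjusted p = 4.32e-04). Several of these calls were close to the threshold, with adjusted p of 0.0473 for Mdm2, 0.0391 for Ccng1 and 0.0430 for Gadd45b. Those 3 were lost when any 1 of the 4 arrays was left out, and Plk2 and Gadd45a were lost as well without the second Yap array, so that 4 genes were called without the first Yap array or either control array and 2 without the second Yap array.

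High-density Tead2-VP16 cells, against the same confluent control arrays, had higher Ccng1 (0.41), Phlda3 (0.27), Plk2 (0.21) and Mdm2 (0.20) and lower Trp53inp1 (-0.56) and Gadd45g (-0.82), where 23.3% of all genes were called, 11.4% higher and 11.9% lower. Gadd45g fell 1.76-fold, with 8.44 ± 0.06 in Tead2-VP16 cells and 9.26 ± 0.12 in control (SD, n = 2 each; adjusted p = 1.93e-04). Gadd45a was at -0.10 (SE 0.08) and was not called. Of the 7 proliferation genes 3 were higher and 2 lower (median 0.16), and 5 of the 8 fibroblast markers were lower (median -0.24), whose part was not tested. The rises of Mdm2 (adjusted p = 0.04995), Plk2 (0.0469) and Phlda3 (0.0184) were lost when any 1 of the 4 arrays was left out, which left 3 genes called. The Yap and Tead2-VP16 values share their control arrays and are given side by side for that reason.

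Against low-density control, Yap cells had 2 genes higher and 5 lower, where 39.4% of all genes were called, 20.7% higher and 18.6% lower. Trp53inp1 was at 1.38 (SE 0.06) and Gadd45g at 0.30 (SE 0.09), and Ccng1 was at -0.97, Mdm2 at -0.62, Zmat3 at -0.55, Plk2 at -0.48 and Phlda3 at -0.29. Gadd45g lost its call without the first low-density control array or either Yap array, and Phlda3 without the second low-density control array. High-density Tead2-VP16 cells had 1 gene higher, Trp53inp1 at 1.34, and 5 lower, where 39.9% of all genes were called, 21.9% higher and 18.1% lower. The falls were those of Ccng1 (-0.79), Gadd45b (-0.67), Mdm2 (-0.63), Plk2 (-0.61) and Zmat3 (-0.38). Phlda3 (-0.19, adjusted p = 0.0520) passed without the first low-density control array. Trp53inp1 was therefore higher, and Ccng1, Mdm2, Zmat3 and Plk2 lower, in both high-density groups than in the same low-density control arrays. All 7 proliferation genes were lower in both, with medians of -2.41 with Yap and -2.75 with Tead2-VP16. Of the 8 fibroblast markers 6 were higher and 1 lower in each. The Tfrc 3′ minus 5′ value was 1.31 ± 0.07, 1.23 ± 0.001 and 0.98 ± 0.05 in Yap, Tead2-VP16 and control cells (SD, n = 2 each). The part of these shifts was not tested.

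Yap cells and Tead2-VP16 cells, both at high density, differed in 1 of the 9 genes, with 1.58% of all genes called, 0.742% higher and 0.841% lower in Yap cells; at an unadjusted p below 0.05, 2 of the 9 were higher and 3 lower. Gadd45b measured 9.15 ± 0.04 in Yap cells and 8.69 ± 0.05 in Tead2-VP16 cells (SD, n = 2 each), a 1.37-fold difference (0.45, SE 0.09, adjusted p = 0.0486). That call was lost when any 1 of the 4 arrays was left out, where limma called 0 genes and 3 or 4 of the 9 were below 0.05 before adjustment, 4 of them without the second Tead2-VP16 array. Gadd45a was at -0.30 (SE 0.08, adjusted p = 0.110), and Trp53inp1 (0.03, SE 0.06) and Mdm2 (0.01, SE 0.06) had the smallest differences.

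Within Tead2-VP16 cells, complete confluency was compared with high density. Gadd45g rose 2.20-fold, with 9.58 ± 0.14 in confluent and 8.44 ± 0.06 in high-density cells (SD, n = 2 each; adjusted p = 5.54e-05). Gadd45a rose 1.999-fold (SE 0.08 on the log2 scale, adjusted p = 6.61e-05), with 9.54 ± 0.01 in confluent and 8.54 ± 0.13 in high-density cells. Trp53inp1 (0.33) and Plk2 (0.30) were also higher and Phlda3 (-0.39) was lower, which makes 5 called genes, beside 20.2% of all genes. Over all probe sets called in this step, 50.8% were higher. When only probe sets above the median level were tested, 8946 of 22518 were called. Plk2 was at -0.03 and not called when its 2 probe sets were averaged. Without the first high-density array 3 genes were called, with Trp53inp1 and Plk2 lost, and Plk2 was also lost without the first confluent Tead2-VP16 array. Mdm2 was at -0.20 (SE 0.06, adjusted p = 0.0503) and Ccng1 at -0.17 (SE 0.07), neither of them called, beside -0.82 and -1.20 for confluent against low-density control. The Tfrc 3′ minus 5′ value was 1.50 ± 0.06 in confluent and 1.23 ± 0.001 in high-density Tead2-VP16 cells, and 4 of the 7 proliferation genes were lower at confluency and 1 higher; their part in these results was not tested. The control step starts from another density, and the difference between the density steps was not tested.

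Several probe sets measured 5 of the genes. All 3 of Ccng1 were lower in confluent than in low-density control (-1.20, -1.05 and -1.01), as were the bright pair of Mdm2 (-0.82 and -1.03), and both of Trp53inp1 were higher (1.90 and 1.20). The dimmest probe set of Mdm2 had a mean level of 3.62 and was at -0.002, and the dimmer one of Plk2 had a mean of 4.56 and was at 0.02; both are below the median probe set of 5.72 and were not called in this step. With Tead2-EnR, the bright pair of Gadd45b probe sets rose by 0.64 and 0.73, and its dimmest was at 0.14 and not called. The dimmest Mdm2 probe set was called only for high-density Tead2-VP16 cells, at -0.47 against confluent control (adjusted p = 0.0270), where the brightest was at 0.20, and at -0.47 against low-density control (adjusted p = 0.0152), where the brightest was at -0.63. The dimmest Ccng1 probe set was called in confluent Tead2-VP16 cells against control (0.39, adjusted p = 0.00977), where the brightest was not.

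**Figure D4:**
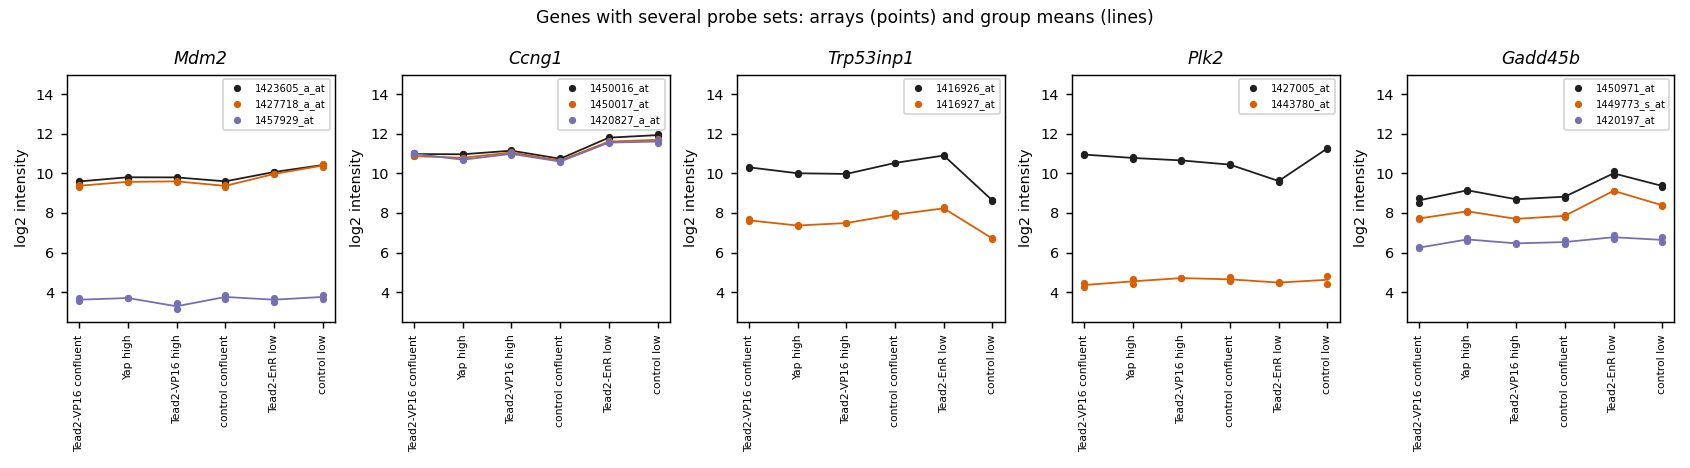
Levels (log2 intensity) of every probe set of the 5 genes with several, on each array (points) with group means joined by lines. The bright probe sets of Mdm2, Ccng1, Trp53inp1 and Gadd45b share their highest group within a gene but not the full order of groups. The 2 of Trp53inp1 span 2.27 and 1.53 between their highest and lowest group means. The dim ones of Mdm2 and Plk2, with means of 3.62 and 4.56, span 0.47 and 0.35.

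Further p53 targets were described from a list of 44, of which 41 were measured. In confluent against low-density control 13 rose and 19 fell, with a median of -0.16 beside -0.01 over all genes. Of all genes 46.3% were called there, 24.9% higher and 21.4% lower. Bright probe sets were called more often, and brightness was not matched for this list or the later ones. The 3 with the smallest adjusted p were Sulf2, a heparan sulfate sulfatase (2.82), Aen, a nuclease of apoptosis (-2.25), and Gtse1, a regulator of p53 that is made in dividing cells (-2.47). With Tead2-EnR 16 rose and 11 fell, beside 34.4% of all genes called, 18.4% higher and 16.0% lower. Sulf2 was at 1.99, Cd82, a tetraspanin, at 1.34 and the sestrin Sesn1 at 1.32. Cdkn1a, the p21 inhibitor of cyclin-dependent kinases and the most studied p53 target, falls outside the naming rule. It measured 11.96 ± 0.03 in Tead2-EnR cells and 11.05 ± 0.03 in low-density control (SD, n = 2 each; adjusted p = 3.45e-06), and it was at -0.40 in confluent against low-density control. With Tead2-VP16 at confluency 5 rose and 4 fell, beside 6.49% of all genes, 3.35% higher and 3.14% lower. They were led by Eda2r, a death receptor (0.92), the epoxide hydrolase Ephx1 (0.41) and Gtse1 (-0.38). The p53 targets thus moved in both directions in each of these comparisons.

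Regulators of p53 numbered 15. With density in control cells 6 rose and 3 fell, among them the checkpoint kinase Chek1 (-2.69), the kinase Hipk2 (0.98) and the acetyltransferase Ep300 (0.63). With Tead2-EnR 3 rose and 3 fell, with Hipk2 at 1.20, Chek1 at -0.75 and the deubiquitinase Usp7 at -0.53, and with Tead2-VP16 at confluency Hipk2 (0.37) was the only call. Calls of 6 of 15 with Tead2-EnR and 1 of 15 with Tead2-VP16 are close to the 34.4% and 6.49% of all genes, so these counts show nothing about the list, and the 9 of 15 with density stand beside 46.3%. Of 12 Gadd45 partners and stress kinases, 10 were measured, among them Cdk1 and Pcna, which are also in the proliferation list. Density in control cells gave 2 rises and 5 falls, with Cdk1 at -2.41, Pcna at -1.84 and Gadd45gip1, a mitochondrial protein that also binds Gadd45, at -1.19. Tead2-EnR gave 1 rise, Map2k6, a p38 kinase kinase (0.48), and 4 falls, among them Gadd45gip1 (-0.77) and Cdk1 (-0.47). Confluent Tead2-VP16 cells had lower Map2k6 (-0.54) and Mapk8, a Jnk kinase (-0.29). These 7, 5 and 2 calls of 10 stand beside 46.3%, 34.4% and 6.49% of all genes.

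Paralogs of these genes had changes unlike theirs in some families and like theirs in others. Of 12 measured, 3 rose and 4 fell with density in control cells. Ccng2, cyclin G2, rose by 3.37 (SE 0.07) where Ccng1 fell by 1.20, and Trp53inp2 rose by 2.60 (SE 0.07) beside Trp53inp1 at 1.90. Plk1, the mitotic polo-like kinase, fell by 2.88 beside Plk2 at -0.82. With Tead2-EnR 3 paralogs rose and 4 fell: Ccng2 was at 2.53 and Trp53inp2 at 2.08, and Plk1 was at -0.82 beside Plk2 at -1.65. With Tead2-VP16 at confluency, Trp53inp2 (-0.34) and Plk1 (-0.31) fell, and Ccng2 was not called. The 7, 7 and 2 calls of 12 in these comparisons stand beside the same shares of all genes.

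**Figure D5:**
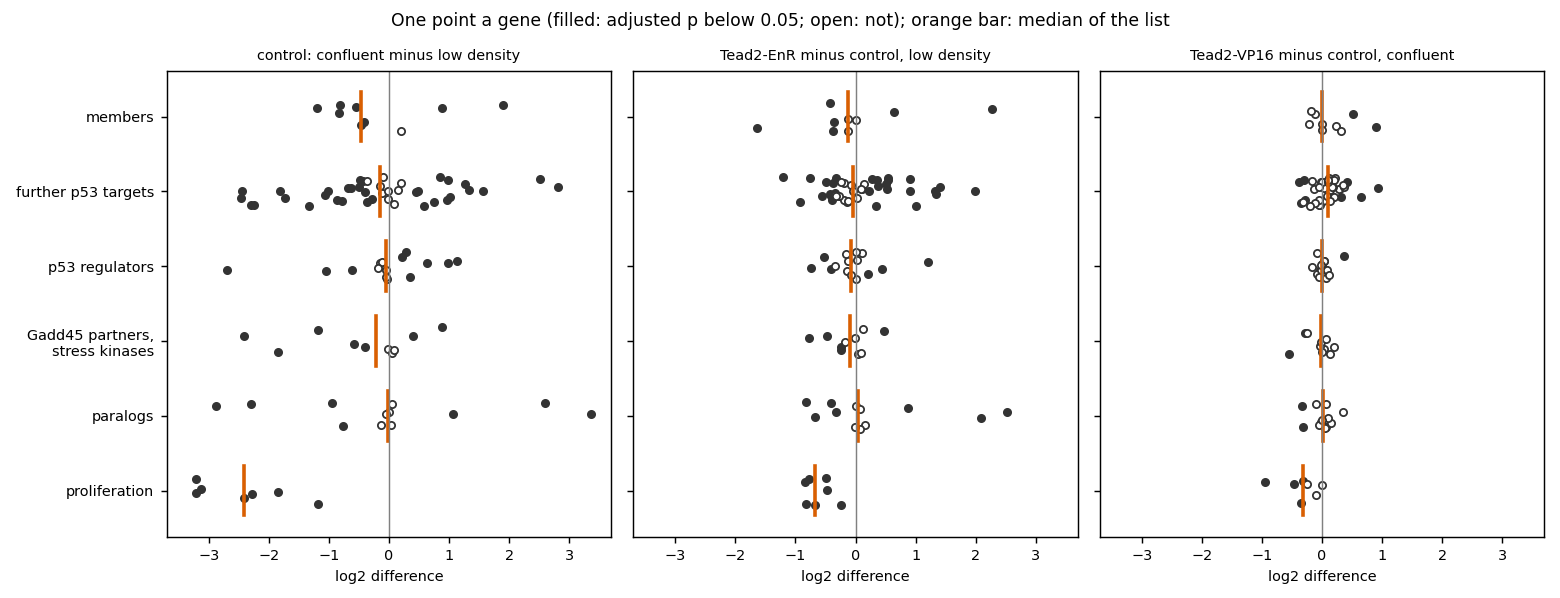
Differences (log2) of every measured gene of 6 lists in 3 comparisons, 1 point a gene, with the list median as an orange bar. The 7 proliferation genes lie at or below 0 in all 3 panels, with medians of -2.41, -0.68 and -0.31, and the 41 further p53 targets lie on both sides of 0.

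The genes with the most similar pattern were sought among 2504 genes whose group means spanned at least 1 on the log2 scale, by Pearson r over the 12 arrays, which share groups and so give a description alone. Nearest to Trp53inp1 were Fuca1 (r = 0.98), Aspn (0.98) and Il18 (0.98), and nearest to Ccng1 were Atad2 (0.99), Map3k20 (0.98) and Ccsap (0.98). Plk2 was closest to Dpysl3 (0.95), Met (0.93) and Pdzd2 (0.93). Gadd45a came closest to Angptl6 (0.98), Vldlr (0.98) and Paqr3 (0.96), Gadd45b to Pla2g7 (0.98), Col10a1 (0.93) and Wee1 (0.93), and Gadd45g to Sema3c (0.97), Rbms3 (0.97) and Igf2r (0.96). No gene is shared between these 6 short lists. Mdm2, Phlda3 and Zmat3 spanned less than 1 and were not matched. The lowest correlation between members was that of Phlda3 and Gadd45g (r = -0.94).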

How the data were processed

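Transcript levels were measured on 12 arrays of NIH3T3 cells. The deposited values are probe set intensity summaries on a linear scale (3.77 to 25980), and RMA, without a version, is named per the submitters' processing notes; log2 was taken here. RMA normalizes between arrays, so a change shared by most transcripts would not show. No detection calls were used. The 64 control probe sets were left out, and 45037 were tested. Symbols came from the platform annotation (GRCm38.p6 gene table for names; 0 symbols changed).

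All 12 arrays were fitted with 1 mean per group by limma 3.58.1 in R 4.3.3 (lmFit, contrasts.fit, eBayes; 6 residual and 3.69 prior degrees of freedom), two-sided, with Benjamini-Hochberg adjustment over all probe sets in each of 10 comparisons. Differences are the first group minus the second. The script was tested on simulated data. The number of arrays limits the precision. Figures used matplotlib 3.10.9 in Python 3.11.15.

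The named genes are all members, at most 3 called genes with the smallest adjusted p per list (further p53 targets, p53 regulators, Gadd45 partners and stress kinases, paralogs, proliferation) and comparison, and the 3 most correlated genes per member. Members and lists were chosen with earlier results of these data known. Alternatives were gene-level tests, averaged probe sets, a filter at the median level, the replicate number as a block, the arrays of each comparison alone, median centring, repeated quantile normalization, a variance trend with a robust prior, and each array left out.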

Additional observations from a re-analysis of the deposited data

How the results depend on the processing

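The number of the 9 genes called was within 1.5 times the reported one under every alternative for density in control cells (8 genes), Tead2-EnR against control (6), and Yap or high-density Tead2-VP16 cells against low-density control (7 and 6). For confluent Tead2-VP16 cells against control, 2 genes were called, against 5 with gene-level tests, 5 with averaged probe sets, 5 with the filter at the median level, 5 with a variance trend and robust prior, and 4 with median centring. High-density Tead2-VP16 cells against confluent control had 6, against 3 with repeated quantile normalization, 3 in a fit of the 4 arrays alone and 3 without any array. For Yap against confluent control, 7 genes became 2 to 4 with 1 array left out. Yap against Tead2-VP16 at high density had 1, against 2 with averaged probe sets, 2 with the filter, 3 with the variance trend, and 0 by limma with median centring (5 at an unadjusted p below 0.05), in a fit of the 4 arrays alone (4 unadjusted) and with any array left out. The density step in Tead2-VP16 cells had 5, against 3 in a fit of its 4 arrays and 3 to 5 with 1 array left out, and the difference between the fusions had 8, against 5 to 8. Averaging the probe sets of a gene turned Mdm2 to -0.0141 in high-density Tead2-VP16 cells against confluent control and Plk2 to -0.0273 in the density step of Tead2-VP16 cells, and it ended the calls of Plk2 in confluent Tead2-VP16 (0.11), Yap (0.12) and high-density Tead2-VP16 cells (0.14) against confluent control and of Mdm2 with Yap (0.12) and between the fusions (0.26); that average includes the dim probe sets of both genes. The cause of the other shifts was not tested. Of 1116 values of single genes under alternatives, 998 kept their direction and side of the threshold, where a difference past it in neither fit was given no direction, 73 lost and 43 gained a call.

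Deviations of same-numbered arrays correlated between -0.0757 and 0.101 over 15 pairs of groups. This cannot decide whether the replicate numbers pair the arrays, since many probe sets are dim. The bacterial spike-in probe sets were brighter on the second array of every group, for example at 8.65 and 8.95 in confluent Tead2-VP16 cells. With the replicate number as a block, 5 genes were called for Yap and 5 for high-density Tead2-VP16 cells against confluent control, with Mdm2 lost in both and Ccng1 in that of Yap, and the counts of the other comparisons did not change. Over all probe sets, calls for confluent Tead2-VP16 cells went between 875 (4 arrays alone) and 4521 (variance trend) beside 2352, and those for Yap against Tead2-VP16 between 11 and 2026 beside 781. Low signal limits the dim probe sets of Mdm2 and Plk2.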
